A study of Caenorhabditis elegans with 4 samples.

Results

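The right arm of chromosome III held 897 of the 14075 peaks in the authors' whole-series list of T09A5.8 binding in *Caenorhabditis elegans*. T09A5.8 is the gene *cec-3* in the RefSeq gene table of assembly WBcel235. The members were chosen by position alone, as all peaks of III whose midpoint lies beyond base 9189163 of WormBase WS220, the last of 3 parts of equal length. The part spans 4.59 Mb and ends at base 13783745, the largest peak end on III in any list. In the same interval the list of ChIP replicate 1 held 265 of its 3666 peaks and that of ChIP replicate 2 held 272 of its 3867.

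CEC-3 carries a chromodomain, a fold that reads methylated histones, and it recognises methylation of histone H3 at lysine 9, which is typical of silent chromatin. In *C. elegans* this mark is spread over the arms of the chromosomes, which are rich in repeated sequence and lie at the nuclear envelope, while the gene-dense centres carry less of it. Each chromosome has 2 arms, so the arm next to the right end of III can be set against its own left arm and against the centre between them.

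Chromatin immunoprecipitation and sequencing (ChIP-seq) was done on whole adult hermaphrodites of the strain fem-2(b245), grown at 20 °C, with a rabbit polyclonal antibody against T09A5.8. The ChIP group and the input DNA group have 2 replicates each, and both groups carry fem-2(b245), a mutation of a sex-determination gene that the labels place on III itself. No wild type and no *cec-3* mutant were analysed here, so the lists do not separate effects of the strain or reactions of the antibody with other proteins. Germline and body nuclei are mixed in whole worms. The stage label gives germline-containing young adults, and the growth protocol describes adults that were gravid. The labels do not tell if each replicate had a culture of its own, and the SDs then measure only the spread of these samples, which may be technical. The input samples have no peak list and are not compared here. Read counts are not part of the lists, which leaves the depth of each sample unknown. Every score below is the authors' own value per peak, on a scale that the sources used here do not state.

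Peaks on the right arm were denser in the part next to the chromosome end than in the part next to the centre. Members numbered 652 in the outer part, next to the right end, and 245 in the inner part, when the arm was divided at its middle. In replicate 1 the outer part held 80.5 peaks per Mb and the inner part 34.8. In replicate 2 the outer part held 84.4 and the inner part 33.95. Outer values lay above inner values in both replicates. The outer-over-inner log2 ratio of density was 1.26 ± 0.074 (SD, n = 2), which is a 2.40-fold higher density in the outer part. Two-sided exact binomial tests against equal density gave an adjusted p of 3.1e-10 in replicate 1 and 6.2e-12 in replicate 2. These tests cover counting error only and treat neighbouring peaks as independent, which they are not, and adjusted p-values are Benjamini-Hochberg values over a family of 13 tests, recomputed under each alternative. With the last 25% of the chromosome taken as the arm, the log2 ratio was 0.32 and the adjusted exact p was 0.37 in replicate 1 and 0.034 in replicate 2.

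Coverage was higher beyond base 10989164, though not in every bin. The outer stretch of 2.79 Mb beyond it had 22.3 ± 0.204% of its bases under replicate peaks, and the inner stretch of 18 bins of 100 kb had 4.36 ± 0.041% (SD, n = 2). The bin that starts at this base had 18.9% of its bases covered in replicate 1 and 17.6% in replicate 2. The bin before it had 1.66% in replicate 1 and 2.48% in replicate 2. Bin means ran from 6.69 to 47.9% in the outer stretch and from 0.617 to 15.4% in the inner one, so the ranges overlap. The inner bins that start at 10589164 and 10789164 had means of 15.4% and 13.0%, above the outer bins that start at 11389164 and 12989164, with 7.99% and 6.69%. The outer stretch held 776 members, 277.7 per Mb, and the inner stretch held 121, 67.2 per Mb. The limit between the stretches was read from these same bins, at the first whose mean coverage passed a level chosen from the data. Low values in the inner stretch follow in part from this choice, so the difference is a description with no test. Median member width was 375 bp in the outer stretch and 348 bp in the inner one. Replicate peaks had median widths of 1850 and 1784 bp in the outer stretch and 1465 and 1571 bp in the inner one, for replicates 1 and 2.

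**Figure D1:**
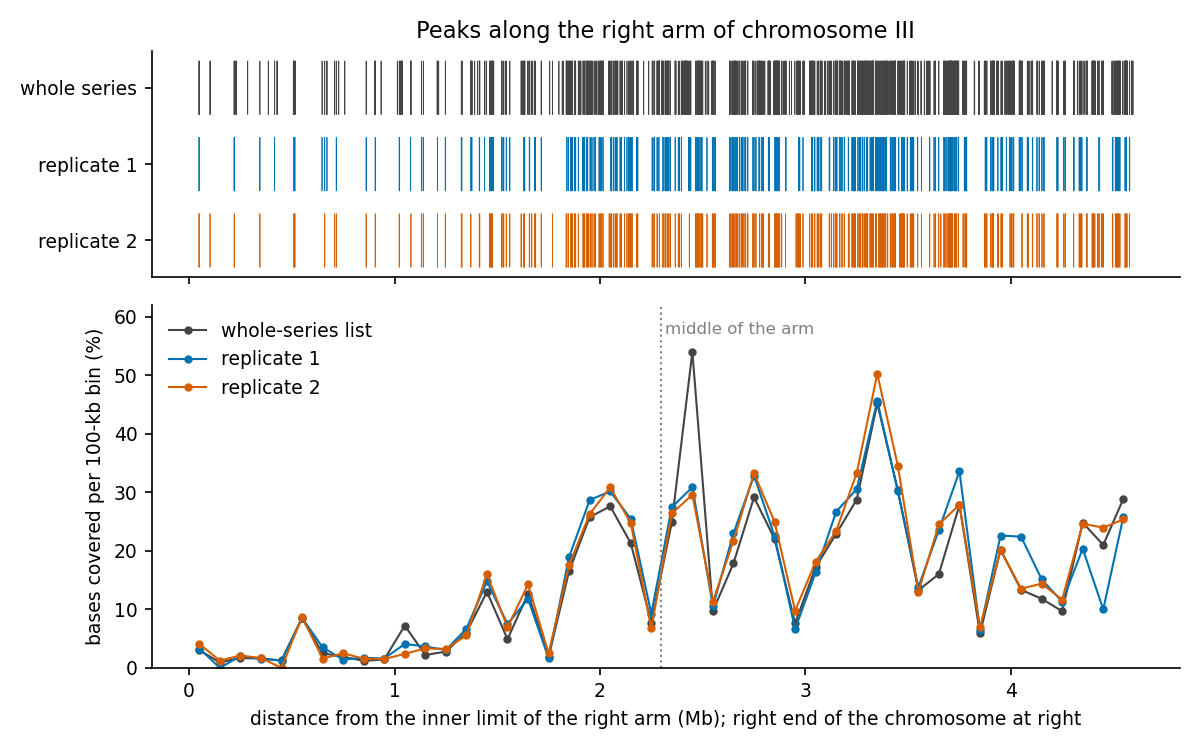
Peaks of the 3 lists along the right arm of III (upper panel, each peak drawn at its width with a thin outline) and the share of bases covered in 100-kb bins (lower panel, percent), against distance from the inner limit of the arm in Mb. The inner 1.8 Mb was set off by its low coverage, so that it stays under 20% follows from that choice. Coverage reaches 47.9% as the mean of the replicates in the most covered bin, and the lists part most in the bin where the whole-series list covers 54.0%.

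Within the outer stretch coverage went up and down from bin to bin, and the replicates lay within 5 percentage points of each other in 25 of its 28 bins. The most covered bin, III 12489164 to 12589163, had 45.7% of its bases under peaks in replicate 1 and 50.2% in replicate 2, and held 41 members. The next were the bins that start at 11889164, with 33.1 ± 0.263%, at 12589164, with 32.4 ± 3.08%, at 12389164, with 31.9 ± 1.95%, and at 12889164, with 30.7 ± 4.06% (SD, n = 2). All but the second of these 5 bins lie between 0.845 and 1.34 Mb from the right end. The least covered bins, which start at 9289164, 9589164, 10089164, 9489164 and 9989164, had means between 0.617 and 1.65% and all lie in the inner stretch. Over the 46 bins the replicates differed by at most 5 percentage points in 43 and by at most 13.96 points in any. They differed most in the bin that starts at 13589164, with 9.985% in replicate 1 and 23.9% in replicate 2, and in that at 13189164, with 22.4% in replicate 1 and 13.5% in replicate 2. Spearman's rho between the replicates was 0.965 over the 46 bins and 0.92 over the 28 of the outer stretch, a description, since the bins share libraries and neighbours.

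The right arm was less dense than the left arm of III and denser than the centre. In replicate 1 there were 57.7 peaks per Mb on the right arm, 84.9 on the left arm and 16.5 in the centre. In replicate 2 there were 59.2 on the right arm, 84.2 on the left arm and 18.5 in the centre. No replicate value of one part fell within the range of another. The right-over-left log2 ratio was -0.53 ± 0.034 (SD, n = 2), or 0.691-fold, with adjusted p-values of 2.1e-06 and 1.3e-05 in two-sided exact binomial tests of replicates 1 and 2. The right-over-centre log2 ratio was 1.74 ± 0.088, or 3.34-fold, with adjusted p-values of 1.6e-24 and 4e-23 in the same exact tests. An exact permutation test over 2 replicate values against 2 cannot go below p = 0.333, so the tests rest on peaks within a replicate.

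In the replicate lists, right-arm peaks were also narrower than those of the left arm and the centre. Replicate peaks of the right arm had a median width of 1755 bp in replicate 1 and 1716 bp in replicate 2, against 2435 and 2285 bp on the left arm and 2214.5 and 2389 bp in the centre. In the whole-series list the order was another, with a median width of 373 bp on the right arm, 413 bp on the left arm and 340 bp in the centre. The right arm had 15.2% and 15.4% of its bases under peaks, the left arm 34.98% and 34.0%, and the centre 5.18% and 5.71%, in replicates 1 and 2. By covered bases the right-over-left log2 ratio was -1.18, more than the -0.53 by number of peaks. Peaks of the highest scores made up a smaller share on the right arm. A score of at least 3100, a value at which many peaks of the replicate lists pile up, was carried by 11.3% and 11.8% of right-arm peaks. The shares were 21.8% and 26.1% on the left arm and 19.7% and 21.2% in the centre. In number they were 30 and 32 on the right arm, 85 and 101 on the left arm and 15 and 18 in the centre. In all of these measures the right-arm replicates agreed more closely with each other than with either other part of III. The left arm of III had the highest share of such scores of the 12 arms in each replicate. The right-arm share lay within the range of the arms of the other chromosomes, 5.71 to 13.4% in replicate 1 and 7.27 to 15.6% in replicate 2.

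**Figure D2:**
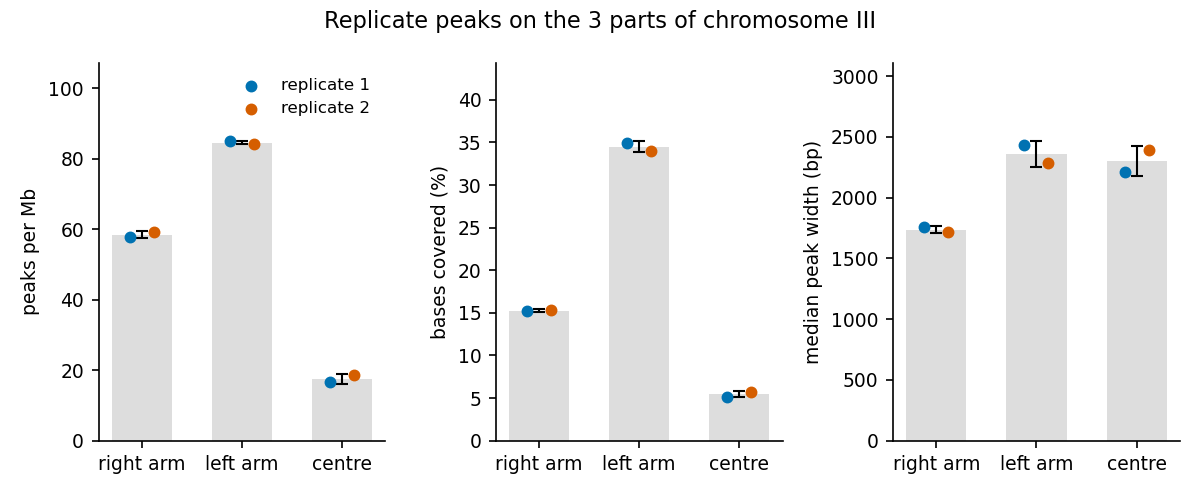
Peak density (peaks per Mb), covered bases (percent) and median peak width (bp) of the replicate lists on the right arm, left arm and centre of III. Grey bars are means of 2 replicates with SD, and points are the replicates. The right arm lies between the left arm and the centre in density and coverage, and its replicate peaks are the narrowest of the 3 parts.

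In the outer parts alone, next to the ends of the chromosome, the densities of the arms lay nearer to each other. In the outer part of each arm, divided at its middle, replicate 1 had 80.5 peaks per Mb on the right and 101.9 on the left, a log2 ratio of -0.34 (two-sided exact binomial test, adjusted p = 0.031). Replicate 2 had 84.4 on the right and 99.2 on the left, a log2 ratio of -0.23 (the same exact test, adjusted p = 0.14). This comparison was chosen after the values had been seen. Coverage there was 22.4 ± 0.444% on the right and 46.4 ± 1.28% on the left (SD, n = 2). In the inner part the right arm had 8.18 ± 0.163% and the left arm 22.6 ± 0.056%. The left arm had 23 bins of 100 kb with over 30% of bases covered, and the right arm had 7.

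**Figure D3:**
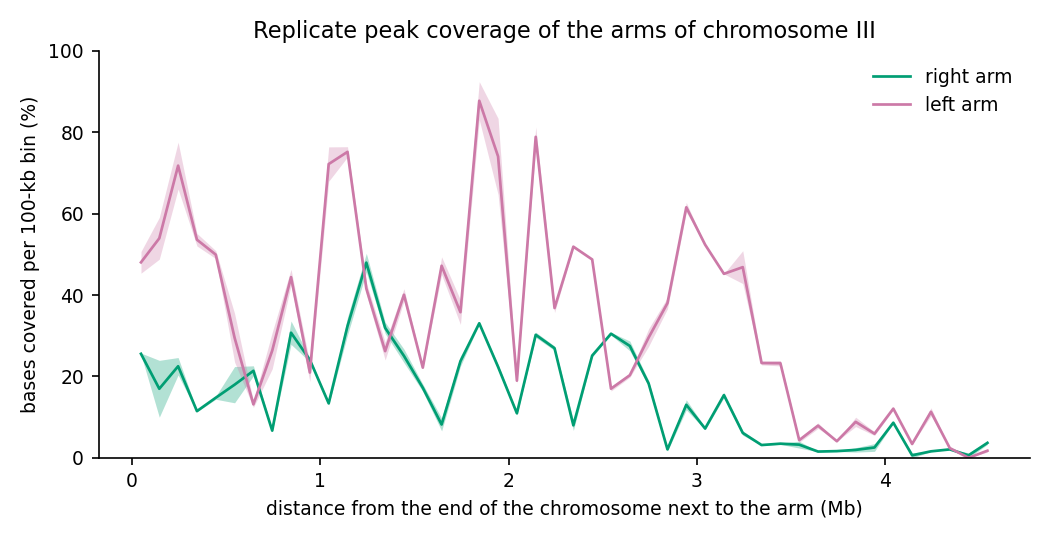
Share of bases covered by replicate peaks in 100-kb bins (percent) against distance from the chromosome end next to each arm of III (Mb). Lines are means of 2 replicates and bands span them. The left arm peaks at 87.7% and the right arm at 47.9%, and both fall to a few percent before the inner limit.

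Among the 12 arms of the 6 chromosomes the right arm of III ranked 6 in replicate peak density and 7 in coverage. Its 58.4 ± 1.08 peaks per Mb stood between the 69.4 ± 2.06 of the left arm of IV and the 54.4 ± 1.67 of the left arm of II. Its coverage of 15.3 ± 0.140% stood between the 17.5 ± 0.967% of the left arm of II and the 10.5 ± 0.217% of the right arm of II (SD, n = 2 for each). None of these neighbours overlapped it in either measure. The median width of its replicate peaks, 1735.5 ± 27.6 bp, did overlap that of the right arm of IV, 1724.5 ± 58.7 bp. These ranks are a description with no test.

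About as many members were found by both replicates as were not. Of the 897 members, 444 or 49.5% (46.2 to 52.8%, a 95% Wilson interval) met a peak in both replicates, by at least 1 bp, against 53.8% of all whole-series peaks. A further 82 overlapped a peak of replicate 1 alone, 97 of replicate 2 alone, and 274 of neither. The last make up 30.5% of the members, against 27.0% in the whole list. The share in both was 54.1% in the rest of the list (two-sided Fisher's exact test, adjusted p = 0.012), 60.5% on the left arm of III (adjusted p = 4.9e-07) and 51.6% in the centre of III (adjusted p = 0.69). These tests treat members as independent, which they are not, since up to 11 members lie under a single peak of replicate 1. The interval of the centre, 45.7 to 57.5%, contains the right-arm value. Among the 12 arms the left arm of III had the highest share in both replicates, and the right arm of III ranked 8. Replicate peaks covered 34.5% of the left arm, 15.3% of the right arm and 5.44% of the centre, as means of the replicates. The tests did not adjust for this. By the same exact test, the difference from the rest of the list lost its call among peaks scoring at or above the list's median, where it was 74.0% on the right arm against 74.7% in the rest (adjusted p = 0.90), with the last 25% of the chromosome as the arm (50.4%, adjusted p = 0.063), and with the members of 3 wide domains described below left out of the right arm alone (51.1%, adjusted p = 0.12). The last setting was chosen after the values had been seen. It removes only members that were not in both replicates, and only from the right arm, so it raises the share by construction.

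Members found by both replicates were the wider and higher-scoring ones. Their median width was 692 bp and their median score 11.6, against 225 bp and 4.67 for members in neither, 304.5 bp and 4.99 for those in replicate 1 alone and 335 bp and 5.74 for those in replicate 2 alone. They held 74.1% of the member bases, and members in neither held 15.2%. The middle ranges of width did not overlap, at 359 to 1170.5 bp for members in both and 171.2 to 335.2 bp for members in neither. Across all members, score and width had a Spearman's rho of 0.777, a description over 897 peaks of a single list. Both replicates held 326 of the 652 members of the outer part (46.2 to 53.8% by the Wilson interval) and 118 of the 245 of the inner part (42.0 to 54.4%), intervals that overlap.

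**Figure D4:**
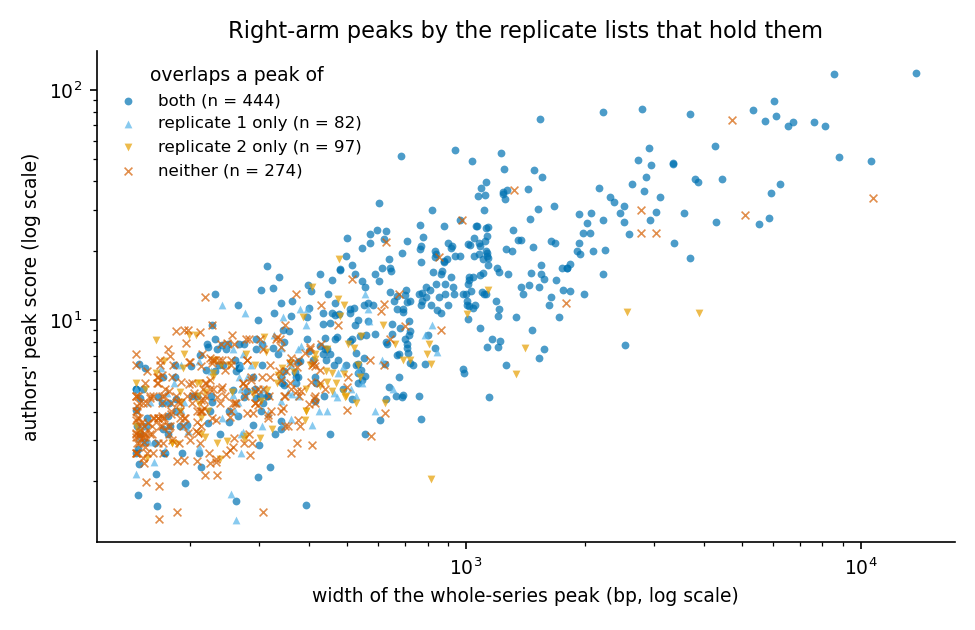
Score against width (bp) of the 897 right-arm peaks of the whole-series list, both on log scales, marked by the replicate lists that hold an overlapping peak. The 444 peaks in both replicates reach up to 13780 bp and a score of 118.2, and most of the 274 in neither are under 400 bp, apart from a few wide ones with scores up to 74.2.

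The share in both climbed with score on the right arm as it did in the rest of the list. With the whole list divided into 4 score groups of equal number, the share from the lowest to the highest group was 21.8, 30.6, 55.1 and 92.3% on the right arm, against 29.5, 37.3, 65.0 and 84.7% in the rest of the list. In each of the 3 lower groups the right arm lay below the rest. In the highest group its interval of 88.0 to 95.1% lay above the 83.4 to 85.9% of the rest. This split was not tested and was made with earlier results of these data known.

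Members were shorter and more numerous than right-arm replicate peaks, over bases that were largely but not fully the same. Of the right-arm peaks of replicate 1, 264 of 265 overlapped a member, against 99.7% of its peaks in all, and of those of replicate 2, 269 of 272 did, against 99.5%. Each replicate 1 peak met a median of 1 member and each replicate 2 peak a median of 2, with 5 or more members under 13 peaks of replicate 1 and 12 of replicate 2. Members covered 674.2 kb, replicate 1 peaks 697.3 kb and replicate 2 peaks 706.4 kb. The bases common to both replicates came to 606.6 kb, of which members covered 80.8%. Of the bases under members, 15.8% lay under no peak of either replicate.

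Most right-arm peaks of each replicate met a peak of the other. In replicate 1, 232 of 265 or 87.5% did (95% Wilson interval 83.0 to 91.0%), against 89.0% of its whole list. In replicate 2, 231 of 272 or 84.9% did (80.2 to 88.7%), against 85.3%. Against the rest of each list the adjusted p was 0.54 in replicate 1 and 0.86 in replicate 2 (two-sided Fisher's exact tests). Against the left arm of III the right-arm share was 87.5% against 86.7% in replicate 1 (adjusted p = 0.86) and 84.9% against 91.0% in replicate 2 (adjusted p = 0.027, the same exact tests). Peaks without a partner were narrow and low-scoring, with medians of 1050 bp and 70.1 in replicate 1 and 1123 bp and 85.2 in replicate 2. Peaks with a partner had medians of 1919.5 bp and 404.3 in replicate 1 and 1987 bp and 492.7 in replicate 2.

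Where a single peak of each replicate marked a site, the replicates placed it alike. Of 235 overlapping pairs of right-arm peaks, 223 were one-to-one, and only these were measured. Pairs were picked by overlap, which in part limits how far their starts and ends can differ. Within the 223 pairs the starts differed by a median of 91 bp and the ends by a median of 89 bp. Starts lay within 250 bp of each other in 183 pairs and ends in 180. Scores had a Spearman's rho of 0.891 and widths of 0.886 over these pairs, which come from a single stretch of chromosome and are not independent. A score of at least 3100 was carried by both peaks of 27 pairs and by a single peak of 5.

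Members had a median score of 6.375 in the outer part of the arm and 6.72 in the inner part. Of the 10 highest-scoring members found in both replicates, 9 lie in the outer part, which holds 72.7% of all members. The highest spans III 13521088 to 13534867, is 13780 bp wide and has a score of 118.2, rank 12 in the whole list. It lies 0.256 Mb from the end and falls inside a single peak of each replicate, of 15538 bp in replicate 1 and 15209 bp in replicate 2. The next, at 12609267 to 12617815, has a score of 116.9 and lies inside peaks of 9176 bp in replicate 1 and 8873 bp in replicate 2. Scores then drop to 89.1, and the remaining members of the 10 lie between that value and 73.4.

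The member of score 89.1 is the exception in place. It spans III 9698999 to 9705037, 4.08 Mb from the end, within the sparse inner stretch, and lies inside peaks of 8551 bp in replicate 1 and 8701 bp in replicate 2. It forms most of a joined domain of 8966 bp at 9696275 to 9705240. To its right, up to 9836160, 130.9 kb hold no member, the longest such stretch of the arm, and no replicate peak lies wholly within it. To its left, from 9617798 to 9696274, 78.5 kb hold none. The 100-kb bin that contains it has 8.55% and 8.70% of its bases under peaks of replicates 1 and 2.

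The other members of the 10 follow in order of score. They lie at 12917487 to 12920283 (score 82.6), 13616213 to 13621532 (81.98), 13326169 to 13328396 (80.1), 12304704 to 12308407 (78.4), 12661173 to 12667268 (76.8), 12367537 to 12369079 (74.9) and 11658474 to 11664210 (73.4). Each of the 10 meets exactly 1 peak in each replicate. In 9 of them both replicate peaks score 3100, so replicate scores do not rank them, and at 13326169 the replicate 1 peak scores 2974.05. Replicate peaks cover each of the 10 members in full, except that at 12917487 replicate 2 covers 95.6%. Of the 100 highest-scoring peaks of the whole list, 6 are members, which is near their share of the list, 897 of 14075 peaks.

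Members with gaps of up to 500 bp between them were joined into domains. The 897 formed 483 domains, of which 293 were single peaks, and 604 members stood in domains of 2 or more. These counts describe this arm alone, with no such count for the whole list beside them. A single replicate peak often held several members: 119 peaks of replicate 1 and 134 of replicate 2 held 2 to 4. The 29 domains of at least 5 kb held 35.9% of the domain bases, the 164 of 1 to 5 kb held 48.3% and the 290 under 1 kb held 15.8%. Of the 29 wide domains, 22 had over 90% of their bases under peaks in both replicates. Of the 290 narrow ones, 55 did, and 181 had under 10% covered in both.

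Of the 5 widest domains, 3 were found whole in both replicates. They span III 12544503 to 12560753 (16251 bp), 13521088 to 13536032 (14945 bp) and 11658474 to 11673282 (14809 bp), and each had at least 98.8% of its bases under peaks in either replicate. The first of them lies under the widest right-arm peak of each replicate, of 16229 bp in replicate 1 and 16382 bp in replicate 2.

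The widest domain of all was in neither replicate. It spans III 11589111 to 11617207, 28097 bp, and consists of 11 members with scores from 4.93 to 74.2 and a median of 13.0. No base of it lies under a peak of replicate 1 or replicate 2. Peaks of replicate 1 end 2886 bp before it and start 2348 bp after it, and those of replicate 2 end 2855 bp before it and start 6425 bp after it. Its member at 11612480 to 11617207, with a score of 74.2 and a width of 4728 bp, has the highest score of any right-arm peak that no replicate holds. The 100-kb bin that contains nearly all of it was 54.0% covered in the whole-series list, against 30.9% in replicate 1 and 29.6% in replicate 2, and was the only bin of the arm in which that list exceeded the mean of the replicates by over 10 percentage points. Why the lists part here was not tested.

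A domain of 14977 bp at III 13584231 to 13599207 was in replicate 2 alone. Its 13 members have scores from 4.84 to 10.8, and the highest of these is below the highest score in each of the other 4 of the 5 widest domains. Peaks of replicate 2 at 13584001 to 13586066 and at 13586176 to 13599332, with scores of 141.9 and 395.4, cover 99.3% of it, and replicate 1 has no peak over it. The nearest replicate 1 peaks lie 23484 bp before it and 16784 bp after it. The opposite case lies nearby. Replicate 1 has a peak of 8954 bp at 13229119 to 13238072 that meets 11 members and no peak of replicate 2.

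The end of the chromosome was marked in the whole-series list alone. The last 4 members span III 13775374 to 13783745, 8372 bp up to the largest peak end on III, with scores from 10.9 to 36.6. The last peak of replicate 1 ends 15399 bp before that position, at 13768346, and the last peak of replicate 2 ends 15971 bp before it, at 13767774. Of the 5 highest-scoring members in neither replicate, 2 belong to this terminal domain, at 13775374 to 13776697 (score 36.6) and 13778006 to 13783087 (28.7). The other 3 belong to the domain of 28097 bp, at 11612480 to 11617207 (74.2), 11592699 to 11603450 (33.8) and 11603541 to 11606321 (30.1).

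**Figure D5:**
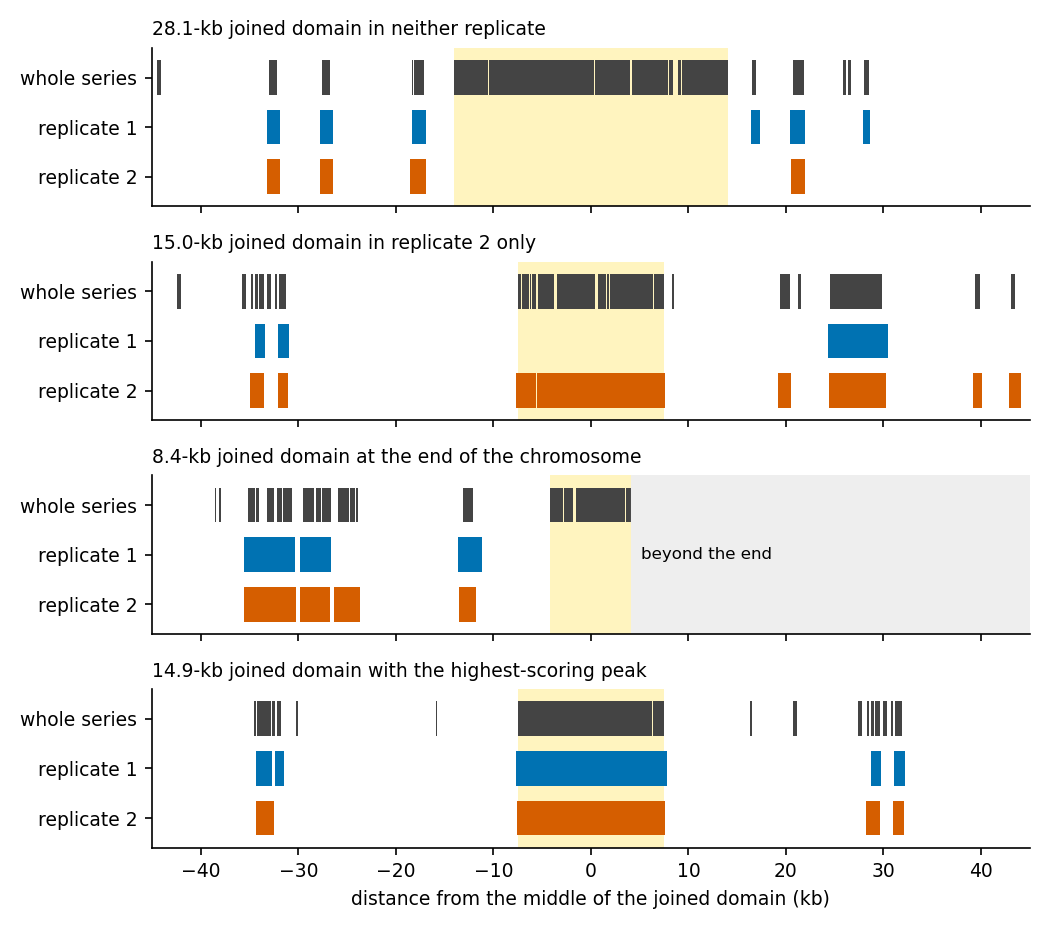
Peaks of the 3 lists around 4 joined domains of the right arm (shaded), against distance from the middle of the domain in kb. From the top they are the domain of 28097 bp that neither replicate list holds, the domain of 14977 bp in replicate 2 alone, the 8372 bp at the end of the chromosome in the whole-series list alone, and the domain of 14945 bp with the highest-scoring member, which all lists hold.

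The limit of the arm fell in a peak-poor region. The first members inside it lie at III 9236568 to 9238484 (score 20.0, 1917 bp wide) and 9238526 to 9239288 (13.0, 763 bp), and both were in both replicates. The last peaks outside it lie at 9110490 to 9110679 (score 6, 190 bp) and 9110861 to 9111225 (10.3, 365 bp), and both were in replicate 1 alone. Positions are WS220 throughout. What is annotated under the peaks was not analysed here, since the gene table at hand is of the later assembly WBcel235, and no sequence of the peaks is given because no genome of the files' build was used.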

How the data were processed

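ChIP-seq was made from 2 T09A5.8 ChIP samples and 2 input DNA samples of fem-2(b245) adults. Reads were aligned with BWA to ce10, per the submitters' processing notes. Peaks were called with MACS for each ChIP replicate and with MACS v2 for the whole series, and positions are on WormBase WS220, per the file headers and source columns. The MACS version behind the replicate lists, the control, the thresholds and the way the replicates were combined are not stated there or in the labels. Each deposited peak has a score from the authors' caller, of unstated scale, with a lowest value of 1.3 in the whole-series list and of 50.1 and 50.07 in replicates 1 and 2. Scores were not compared between the whole-series and replicate lists. No read counts are given, so depth is unknown.

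Each chromosome, up to the largest peak end in any list, was divided into 3 parts of equal length, and peaks were placed by midpoint. Overlap needed 1 bp. Shares carry 95% Wilson intervals, which cover counting error only. Intervals and tests treat neighbouring peaks as independent, which they are not. Shares were compared with two-sided Fisher's exact tests and densities with two-sided exact binomial tests, with Benjamini-Hochberg adjustment over 13 tests and a threshold of 0.05. The functions were tested on simulated peaks. Named peaks, bins, domains and stretches follow a rule on score, width, coverage or place; replicate peaks named beside them, and the comparison of outer parts of arms, were chosen after their values were seen. The members and lists were chosen with earlier results of these data known. Planned counts of genes under peaks were not made. Tests were run with scipy 1.17.1 and statsmodels 0.14.6 in Python 3.11.15, tables were handled with pandas 2.3.3 and numpy 2.4.6, and plots were drawn with matplotlib 3.10.9.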

Additional observations from a re-analysis of the deposited data

How the results depend on the processing

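Of the 38 alternative values computed, 24 kept their direction and their side of the threshold or moved less than the spread between replicates. Among those 24 are the values with either replicate left out. Apart from the share of members, these repeat the main values of each replicate, so their agreement was largely fixed in advance. For coverage, each of 2 replicate values lies within the SD of their mean by construction. The share of members in both replicates, 49.5%, was 74.0% among peaks at or above the median score, 50.4% with the last 25% of the chromosome as the arm and 51.1% without the wide domains that a replicate lacks, and its difference from the rest of the list lost its call under each. The share of replicate peaks with a partner, 86.2% as the mean of the replicates, was 88.5% at or above the median score, where it lay above that of the rest of the lists, at 87.2%. The outer-over-inner log2 ratio of 1.26 was 0.32 with the last 25% as the arm, without a call in replicate 1. The right-over-left log2 ratio was -0.29 in the outer parts of the arms, without a call in replicate 2, and -0.51 with the last 25% as the arm. With covered bases in place of peaks the log2 ratios were -1.18 for right over left, 1.49 for right over centre and 1.45 for outer over inner. Coverage of the arm was 14.7% in the whole-series list and 19.5% with the last 25% as the arm. The number of joined domains, 483 with gaps of up to 500 bp, was 381 with gaps of up to 1000 bp, within 1.5 times. It was 897 with no gap joined and 298 with gaps of up to 2000 bp. Causes were not tested. Leaving out the wide domains and changing the gap that is joined alter the values by construction. With either replicate left out, the share of members overlapping the remaining replicate was 58.6 to 60.3%. The other values of these settings are the main values of each replicate listed again, and they do not test robustness. They were 84.9 to 87.5% for replicate peaks with a partner, which was still sought in the replicate left out. The log2 ratios were -0.56 to -0.51 for right over left, 1.68 to 1.80 for right over centre and 1.21 to 1.31 for outer over inner. Coverage was 15.2 to 15.4%. No paired analysis was possible because no peak list exists here for the input samples, whose replicate numbers match those of the ChIP samples. The limit that depth sets on these peak numbers cannot be given without read counts.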

Other observations

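The right arm held long stretches without a member, and they lay almost wholly in its inner part. Of 13 stretches of over 50 kb between neighbouring members, 1 lies in the outer part and 12 in the inner part. The 3 longest are III 9705241 to 9836160 (130.9 kb), 9291807 to 9408221 (116.4 kb) and 9947108 to 10050574 (103.5 kb), and no replicate peak lies wholly within any of them. The exception in the outer part is 11750662 to 11820339, 69.7 kb. Neighbouring members were a median of 516 bp apart in the outer part and 996 bp in the inner part.

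Of the right-arm replicate peaks, 33 of 265 in replicate 1 and 41 of 272 in replicate 2 met no peak of the other replicate. The shares that did meet one, 87.5% and 84.9%, were near the 89.0% and 85.3% of the whole lists. In replicate 1 the peak at III 11474818 to 11477635, with a score of 525.5, is the highest-scoring one without a partner in replicate 2, and it overlaps a member. Those that overlap no member are at 11104583 to 11105660 in replicate 1 and at 12143366 to 12144443, 12836234 to 12837140 and 12847772 to 12849541 in replicate 2, with scores between 57.7 and 89.7.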
